A study of Bos grunniens and Bos grunniens x Bos taurus with 6 samples.

Results

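LMOD3 and the genes that work with it on the muscle thin filament were followed in longissimus dorsi, the long back muscle, of cattle-yak and of yak. The 9 genes sought were the leiomodins LMOD3 and LMOD2, the tropomodulins TMOD1 and TMOD4, the Kelch proteins KLHL40, KLHL41, KLHL23 and KBTBD13, and nebulin (NEB). Each gene was taken as the gene identifier with most pooled reads among the rows that bear its symbol, and all rows of that identifier were summed per library. This gave 8 genes of the 31044 in the table. KBTBD13 was not matched by this rule and is not analysed here. The set was chosen by the earlier measured values of LMOD3 and KLHL23, whose read levels and transcript proportions were known to differ between the groups in these same libraries. Both are therefore described with no test.

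Cattle-yak are hybrids between cattle and yak, and their 3 samples were set against 3 samples of yak (Bos grunniens). The labels name the tissue and the animal type and state no treatment, sex, age or direction of the cross. They do not state either whether samples came from different animals. The p-values therefore set the group difference against the scatter among these 6 samples only, and part of that scatter may be technical. They do not reach beyond these samples to cattle-yak and yak in general.

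In skeletal muscle the thin filament is a polymer of actin that runs from the Z-disc towards the middle of the sarcomere, covered by tropomyosin and troponin and lined by nebulin. Its free pointed end is held by tropomodulins, which cap it and stop growth, and by leiomodins, which nucleate actin and let the end grow longer. In humans and mice, loss of LMOD3, KLHL40, KLHL41, NEB or muscle actin causes nemaline myopathy, a weakness with rod-like bodies in the fibres, and KLHL40 is known in mice to stabilise LMOD3 and nebulin protein.

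The 6 nanopore cDNA libraries held between 2366057 and 2769106 counted reads in cattle-yak, and between 2350851 and 2502603 in yak. Of 7504 genes with enough reads to test, 948 (12.6%) passed an adjusted p under 0.05 in edgeR's quasi-likelihood test, 6.45% higher and 6.18% lower in cattle-yak. All levels below are CPM, read counts scaled to the library's size, after TMM scaling, and every log2 fold change is of cattle-yak over yak. Counts were not divided by length, so levels are compared between groups and not between genes. Skeletal muscle markers were abundant. Slow fibre genes summed to between 23290 and 25930 CPM in cattle-yak and between 19900 and 27770 in yak, and fast fibre genes to between 100400 and 125200 CPM in cattle-yak and between 126100 and 141500 in yak. None of the 6 heart markers was matched to an identifier, NPPA and MYH6 among them, so their level is not known here. MYH1 and TPM3 of the fibre lists were not matched either.

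LMOD3, the leiomodin of skeletal muscle, was much lower in cattle-yak. Its level was 384, 447.5 and 607 CPM in the cattle-yak libraries, against 2121, 2826 and 2015 CPM in the yak libraries. The highest cattle-yak library lay far under the lowest yak library, so the groups stood well apart. The means were 479.7 ± 115 CPM in cattle-yak and 2321 ± 441 CPM in yak (SD, n = 3 each). LMOD3 was 4.84-fold lower in cattle-yak (log2 -2.27 ± 0.21, SE). These values rest on 971, 1114 and 1654 reads in cattle-yak, against 4781, 6471 and 4474 reads in yak. In RNA of a whole muscle, fewer cells of a type and less of the RNA per cell cannot be told apart. Across 15 other ways of scaling, filtering and fitting, the log2 difference of LMOD3 lay between -2.49 and -2.12.

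**Figure D1:**
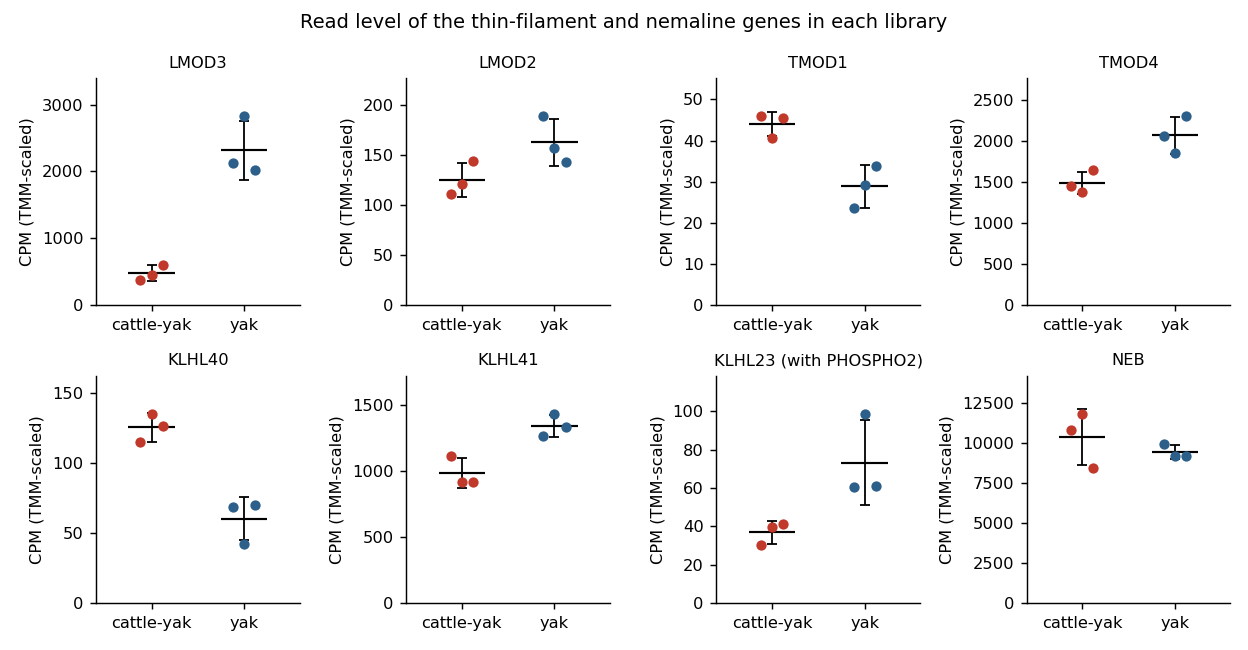
Level of each gene in CPM after TMM scaling (vertical axes, each from 0), with 1 point per library, the mean as a line and the SD as a bar, for 3 cattle-yak libraries at the left and 3 yak libraries at the right of each panel. LMOD3 lies between 384 and 607 CPM in cattle-yak and between 2015 and 2826 CPM in yak, KLHL40 runs the other way, and LMOD2 and NEB overlap between the groups.

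LMOD2, the leiomodin best known from heart, is also made in skeletal muscle. Its level was 111, 121 and 144 CPM in cattle-yak, against 188, 157 and 143 CPM in yak. The highest cattle-yak library lay just over the lowest yak library, so the groups overlapped. The means were 125 ± 16.8 CPM in cattle-yak and 163 ± 23.4 CPM in yak (SD, n = 3 each). The difference (log2 -0.38 ± 0.17, edgeR adjusted p 0.17) did not pass, nor did it under any of 16 alternatives. The ratio of LMOD3 to LMOD2 reads, which needs no scaling of libraries, was 3.47, 3.7 and 4.23 in cattle-yak, against 11.2, 18 and 14.1 in yak. Set against its own paralog in the same library, LMOD3 was lower in each cattle-yak library than in any yak library. As LMOD3 was chosen for its difference, this ratio and the other LMOD3 ratios below are descriptions. They add no separate support for its lower level. LMOD1, the smooth muscle leiomodin, was low, at 8.27 ± 0.676 CPM in cattle-yak and 12.4 ± 2.86 CPM in yak (SD, n = 3 each), with an edgeR adjusted p of 0.235.

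TMOD4, the tropomodulin of skeletal muscle fibres, had 1452, 1383 and 1643 CPM in cattle-yak, against 2060, 1852 and 2304 CPM in yak. The groups did not overlap. The log2 fold change of TMOD4 was -0.47 ± 0.16, and its edgeR adjusted p of 0.0672 did not pass. TMOD1, the tropomodulin of heart, red cells and skeletal muscle, had 45.9, 40.6 and 45.5 CPM in cattle-yak, against 23.5, 29.3 and 33.8 CPM in yak. Here too the groups did not overlap, and the cattle-yak libraries were the higher ones. With 3 against 3, groups that do not overlap reach an exact permutation p of 0.1 at best. The share of all genes with no overlap was not counted, so non-overlap here and below is a description only. The log2 fold change of TMOD1 was 0.61 ± 0.20, and its edgeR adjusted p of 0.0653 did not pass. Both lay near the threshold. TMOD4 passed without cattle-yak 3 (log2 -0.56, edgeR adjusted p 0.0483), with assembled transcripts only and with no low count filter. It had a log2 value of -0.01 when only reference transcripts were counted. For that setting the libraries were scaled anew on 1643 genes. KLHL41, with 99.96% of its reads in a reference transcript, moved there from a log2 value of -0.45 to -0.23. TMOD1 passed among genes of at least 10 CPM (log2 0.65, edgeR adjusted p 0.0431) and with library size alone (log2 0.77, edgeR adjusted p 0.0224).

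Since the tropomodulins had log2 values of opposite sign, their ratio was taken after their levels had been seen. TMOD1 reads per TMOD4 read were 0.0316, 0.0293 and 0.0277 in cattle-yak, against 0.0114, 0.0158 and 0.0147 in yak. The ratio was 1.09 higher in cattle-yak on the log2 scale. As neither gene overlapped and their signs were opposite, the ratio could not overlap either. Its exact permutation p of 0.1, the smallest that 3 against 3 can give, was thus fixed in advance. It adds nothing to the levels. LMOD3 reads per TMOD4 read, which set the elongating against the capping protein's mRNA, were 0.265, 0.324 and 0.37 in cattle-yak, against 1.03, 1.53 and 0.875 in yak. TMOD3, the tropomodulin found in most cells, had 10.6 ± 3.13 CPM in cattle-yak and 9.89 ± 1.96 CPM in yak (SD, n = 3 each), with an edgeR adjusted p of 0.872. TMOD2, the brain form, was not matched.

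KLHL40, the Kelch protein that guards LMOD3 and nebulin, was higher in cattle-yak. Its level was 115, 135 and 126 CPM in cattle-yak, against 68.3, 42.4 and 69.8 CPM in yak. The lowest cattle-yak library exceeded the highest yak library by a wide margin. The means were 125 ± 10.1 CPM in cattle-yak and 60.2 ± 15.4 CPM in yak (SD, n = 3 each). KLHL40 rose 2.08-fold (log2 1.06 ± 0.20, edgeR adjusted p 0.00437), and it passed under each of 15 alternatives (log2 between 0.84 and 1.21, adjusted p up to 0.0202). LMOD3 reads per KLHL40 read were 3.35, 3.32 and 4.81 in cattle-yak, against 31, 66.7 and 28.9 in yak. KLHL40 mRNA was thus higher and LMOD3 mRNA lower in the same 3 libraries.

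KLHL41, a relative of KLHL40 that is known in mice to stabilise nebulin, was measured on 16715 reads, nearly all of them (99.96%) of 1 reference transcript. Its level was 1117, 918 and 920 CPM in cattle-yak, against 1266, 1434 and 1335 CPM in yak. The groups did not overlap, yet the log2 fold change of -0.45 ± 0.16 had an edgeR adjusted p of 0.0767 and did not pass. It passed with no low count filter (adjusted p 0.043). KLHL40 reads per KLHL41 read, a ratio also taken after the levels were seen, were 0.103, 0.147 and 0.137 in cattle-yak, against 0.0539, 0.0295 and 0.0523 in yak. The log2 difference of that ratio was 1.55. Its exact permutation p of 0.1, again the smallest possible, was also fixed in advance, since neither gene overlapped and their signs were opposite.

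The symbol KLHL41 also stood on other identifiers, so reads of the gene may be split between them. The larger, ENSBGRG00000006370, held 11433 reads in 93 transcripts, at 803 ± 101 CPM in cattle-yak and 773 ± 76.4 CPM in yak (SD, n = 3 each). Its log2 value of 0.05 ± 0.16 (edgeR adjusted p 0.861) did not go the way of the first identifier. With all rows named KLHL41 summed, the log2 value was -0.23 with an edgeR adjusted p of 0.354. A small assembled locus of that name, TALONG000137115, had 34, 44 and 24 reads in cattle-yak, against 9, 16 and 6 in yak (log2 1.53 ± 0.40, edgeR adjusted p 0.024), and it did not pass without cattle-yak 2, yak 1 or yak 3 (adjusted p up to 0.106).

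KLHL23, a Kelch protein whose role in muscle is little known, had 30.1, 39.8 and 41.1 CPM at its identifier in cattle-yak, against 60.3, 98.7 and 60.8 CPM in yak. The groups did not overlap. The log2 fold change was -0.99 ± 0.23 over the whole identifier, and -0.73 without yak 2. Only 24.7% of those reads, however, lay in transcripts named KLHL23. Most of the others were named PHOSPHO2, a phosphatase gene that stands next to KLHL23 in RefSeq's gene order, so reads of these neighbours may not have been told apart by the counting.

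Splitting the identifier by name, a step added after seeing the data, separated the pair. Transcripts named KLHL23 had 6, 5 and 6 reads in cattle-yak, against 49, 74 and 54 in yak. Those named PHOSPHO2 had 68, 93 and 103 reads in cattle-yak, against 84, 143 and 76 in yak, and these overlapped. A second identifier named KLHL23 alone had 1, 4 and 12 reads in cattle-yak, against 30, 74 and 32 in yak. With all rows named KLHL23 summed, the log2 value was -3.38, far larger than over the mixed identifier. SSB, the neighbour on the other side, had a log2 value of -0.17 ± 0.15 and did not pass.

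**Figure D2:**
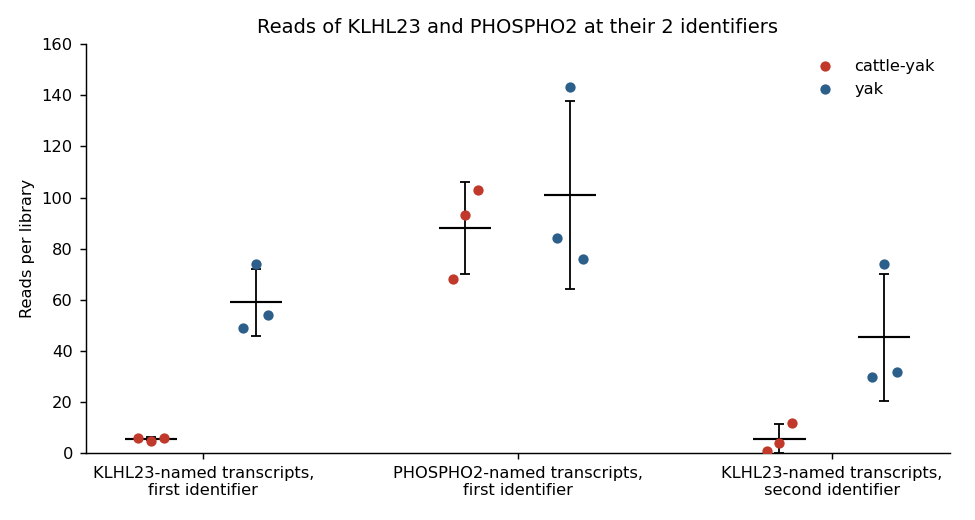
Reads per library (vertical axis, from 0) of transcripts named KLHL23 and PHOSPHO2 at the first identifier and of those named KLHL23 at the second, with 1 point per library, cattle-yak left of yak, the mean as a line and the SD as a bar. At the first identifier KLHL23-named reads number 5 or 6 in each cattle-yak library and at least 49 in each yak library, and at the second between 1 and 12 in cattle-yak and between 30 and 74 in yak, whereas PHOSPHO2-named reads overlap.

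NEB, the giant ruler protein along the thin filament, was the most heavily sequenced of the 8, with 143760 reads in 3284 transcripts. Its level was 10850, 11830 and 8474 CPM in cattle-yak, against 9922, 9214 and 9168 CPM in yak. The groups overlapped, since cattle-yak 3 was the lowest library of all. NEB did not pass (log2 0.14 ± 0.16, edgeR adjusted p 0.628). Under the alternatives the log2 value lay between 0.02 and 0.30, and none passed. LMOD3 reads per NEB read were 0.0354, 0.0378 and 0.0717 in cattle-yak, against 0.214, 0.307 and 0.22 in yak.

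A second identifier with the symbol NEB, ENSBGRG00000005974, behaved differently. It had 2196, 2536 and 2066 reads in cattle-yak, against 1249, 1186 and 1075 in yak, with no overlap. At 882 ± 131 CPM in cattle-yak and 519 ± 34.9 CPM in yak (SD, n = 3 each), it rose by 0.77 ± 0.16 on the log2 scale (edgeR adjusted p 0.00813). It held 7.85% of the reads of both NEB identifiers in cattle-yak and 5.21% in yak, and it did not pass without yak 3 (log2 0.70, adjusted p 0.0552). Whether the pair are parts of 1 gene in the build used was not tested.

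Of the 6 genes other than LMOD3 and KLHL23, 1 passed (KLHL40, higher), a count that does not stand apart from the 12.6% of all genes tested.

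LMOD3 reads fell into 43 assembled transcripts, and no reference transcript carried the gene. The leading form, TALONT000661839, held 64.1% of the pooled LMOD3 reads. Its share was 72.2%, 76.5% and 77.8% in cattle-yak, against 62.8%, 58.7% and 63.2% in yak. Each cattle-yak library thus devoted more of its few LMOD3 reads to that form, by 13.9 percentage points between the means. In absolute terms the leading form was lower too, with 701, 852 and 1287 reads in cattle-yak, against 3003, 3801 and 2828 in yak (log2 -1.95 ± 0.21).

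The second form, TALONT000661824, lost the most share, 8.6 percentage points between the means. It had 37, 36 and 74 reads in cattle-yak, against 571, 947 and 480 in yak, and its share averaged 3.84% ± 0.622 in cattle-yak and 12.4% ± 2 in yak (SD, n = 3 each). Its level was lower by a log2 value of -3.95 ± 0.33, well beyond the -1.95 of the leading form. A smaller form, TALONT000656498, was nearly lost from cattle-yak, at 4, 5 and 7 reads, against 126, 194 and 107 in yak (log2 -4.88 ± 0.34, or 29.4-fold lower). The forms TALONT000656528 and TALONT000656490 kept more even shares. The share of TALONT000656528 was 9.61% ± 2.04 in cattle-yak and 9.35% ± 0.187 in yak, and that of TALONT000656490 was 6.97% ± 2.44 in cattle-yak and 9.08% ± 1.09 in yak (SD, n = 3 each).

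Without the leading form, the other 42 transcripts together had 270, 262 and 367 reads in cattle-yak, against 1778, 2670 and 1646 in yak, which is 6.78-fold more reads in yak than in cattle-yak. The lower LMOD3 level was spread over the 5 main forms, and its size was uneven among them. Of the 43 forms, 8 had enough reads to test, a filter that a form can pass through the yak libraries alone, and all 8 were lower in cattle-yak. The number of forms with a read was 15, 15 and 21 in cattle-yak, against 34, 34 and 26 in yak, a count that moves with the number of LMOD3 reads. In RefSeq's gene order LMOD3 lies between FRMD4B and ARL6IP5. The ARL6IP5 identifier carried some LMOD3-named reads as well, 14, 10 and 20 in cattle-yak, against 45, 64 and 36 in yak, while the whole identifier did not pass (log2 -0.19 ± 0.17, edgeR adjusted p 0.486).

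**Figure D3:**
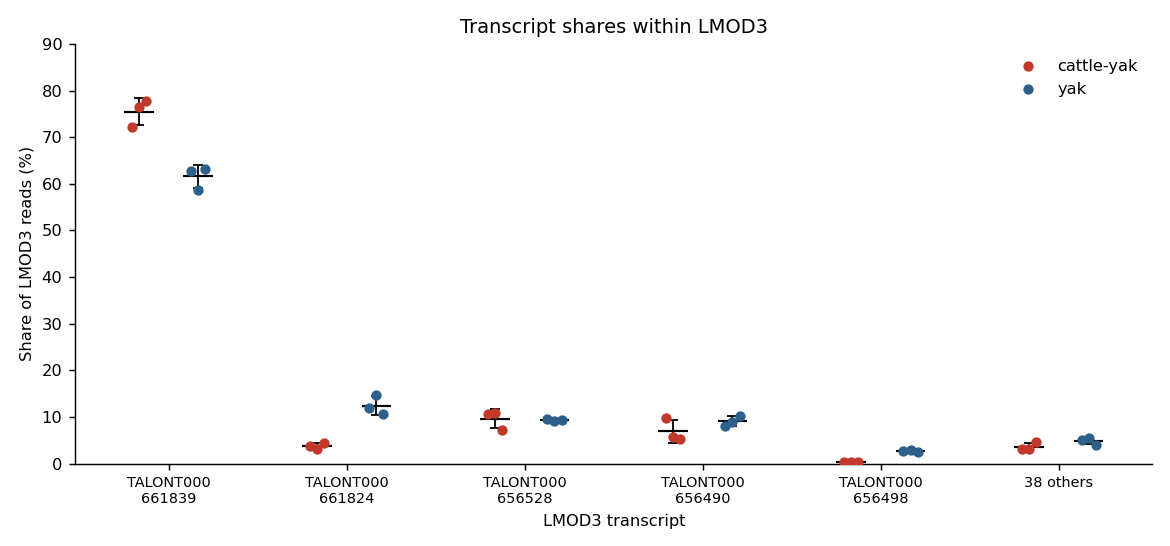
Share of LMOD3 reads in each main transcript and in the 38 others (vertical axis, percent, from 0), with 1 point per library, cattle-yak left of yak, the mean as a line and the SD as a bar. The leading transcript holds between 72.2% and 77.8% in cattle-yak and between 58.7% and 63.2% in yak, and the second has the reverse pattern.

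Over all transcripts tested, 18.5% of 15804 passed the same threshold, 9.64% higher and 8.86% lower in cattle-yak. KLHL40 had 4 of 14 transcripts tested, of which 3 rose. Its leading form, TALONT000720288, had 176, 182 and 198 reads in cattle-yak, against 106, 62 and 106 in yak (log2 0.84 ± 0.24, edgeR adjusted p 0.0237). TALONT000720531 rose more, with 34, 44 and 38 reads in cattle-yak, against 12, 5 and 9 in yak (log2 1.97 ± 0.37, edgeR adjusted p 0.00244), and TALONT000720283 had a log2 value of 1.36 ± 0.39 (edgeR adjusted p 0.0252). These 3 forms are parts of the gene total that had already passed, so they are no separate support for it. TALONT000720531 and TALONT000720283 had between 5 and 13 reads in each yak library, and could pass the read filter through cattle-yak alone. TALONT000720288 did not pass without cattle-yak 2, cattle-yak 3 or yak 2 (adjusted p up to 0.127). TALONT000720283 did not pass with a replicate block (adjusted p 0.0521) and passed in only 5 of 12 alternatives.

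TMOD4 had 25 of 252 transcripts tested, and 20 of these had a negative log2 value. The leading forms TALONT000863653 (log2 -0.60 ± 0.17, edgeR adjusted p 0.0227) and TALONT000863679 (log2 -0.51 ± 0.16, edgeR adjusted p 0.0392) fell, though the first passed in 8 and the second in 5 of 13 alternatives (adjusted p up to 0.0971 and 0.147). The reference transcript of TMOD4 had 233, 235 and 318 reads in cattle-yak, against 237, 244 and 324 in yak. Those counts were almost alike, and its log2 value of -0.22 ± 0.20 did not pass. In LMOD2 the reference transcript ENSBGRT00000045522 fell, with 32, 26 and 46 reads in cattle-yak, against 70, 59 and 49 in yak (log2 -0.96 ± 0.28, edgeR adjusted p 0.0276), and it passed in 7 of 13 alternatives (adjusted p up to 0.106). The other 3 tested LMOD2 forms did not pass, nor did either of the 2 tested TMOD1 forms.

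NEB had by far the most forms. Of its 3284 transcripts, 292 were tested, of which 50 (17.1%) rose and 11 (3.77%) fell, beside 9.64% and 8.86% of all transcripts. A form can pass the read filter through the libraries of either group alone, and each cattle-yak library held more NEB reads. These shares are therefore a description only. Log2 values ran between -1.84 and 3.85 with a median of 0.31, against 0.14 for the gene as a whole. The most abundant form, TALONT001300288, held 18.1% ± 1.34 of NEB reads in cattle-yak and 20.8% ± 0.979 in yak (SD, n = 3 each), and its log2 value of -0.06 ± 0.16 did not pass. The second, TALONT001382222, held 5.01% ± 0.0859 in cattle-yak and 7.01% ± 0.339 in yak, with a log2 value of -0.33 ± 0.18 that did not pass either. Forms with at least 1 read numbered 2316, 2312 and 2138 in cattle-yak, against 2019, 2006 and 2052 in yak, with more NEB reads in each cattle-yak library. The count leaned on single libraries: 26 rose and 5 fell without cattle-yak 2, and 74 rose and 6 fell without cattle-yak 3.

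**Figure D4:**
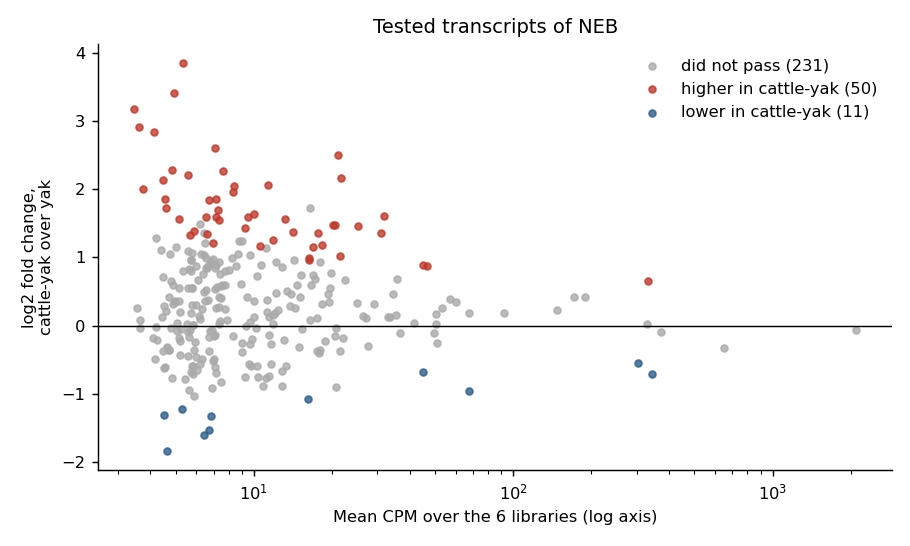
Log2 fold change of cattle-yak over yak (vertical axis) against mean CPM over the 6 libraries (horizontal log axis) for the 292 tested NEB transcripts, 1 point each, coloured by whether the transcript passed the test as higher (50) or lower (11) or did not pass (231). The most abundant transcript (2103 CPM) lies near 0, and points that passed occur in both directions, TALONT001259683 (344 CPM, log2 -0.71) and TALONT001054878 (330 CPM, log2 0.66) among the more abundant ones.

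A test of transcript usage asks whether the forms of a gene keep their proportions. Among 1821 genes with at least 2 forms of 5% or more, 8.62% passed. LMOD3 and KLHL23, whose transcript proportions chose them, are described by their shares alone. Of the 5 other genes tested none passed in edgeR (KLHL40 had an unadjusted p of 0.0355). The edgeR adjusted p was 0.179 for KLHL40, 0.319 for LMOD2, 0.499 for TMOD4, 0.579 for NEB and 0.622 for TMOD1. The values of NEB rested on the 2 of its 3284 transcripts that reach 5%. With no minimum share, NEB (edgeR adjusted p 1.24e-78) and TMOD4 (edgeR adjusted p 0.00473) passed, so their calls depend on which transcripts enter. More genes passed under that setting in general, 308 of 1965 against 157 of 1821. The NEB value pools many forms counted in the same 6 libraries, so its size is no measure of strength. KLHL41, with practically 1 form, was not tested. In KLHL23 the shift lay between the names: the PHOSPHO2-named form TALONT001487371 held 21.4% ± 1.75 of the identifier's reads in cattle-yak and 9.49% ± 0.793 in yak, and the KLHL23-named form TALONT001487711 held 4.1% ± 2.16 in cattle-yak and 22.1% ± 2.65 in yak (SD, n = 3 each).

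Other genes of the same machinery were taken from lists of thin filament proteins, tropomodulins and leiomodins, actin capping and turnover, other nemaline genes, CUL3 ligase and Kelch genes, and regulators of the SRF, MRTF and MEF2 type. Of 73 distinct names 62 were matched and 55 tested, of which 5 rose, 3 fell and 47 did not pass. That is 14.5%, close to the 12.6% over all genes, and the median log2 value was -0.00069 beside 0.024 over all genes. The 8 calls became 5 without cattle-yak 2 and 4 without any single yak library.

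Among 10 thin filament genes tested, 2 rose and 1 fell. NRAP, an actin-binding nebulin relative of assembling myofibrils, had 769.5, 688 and 573.5 CPM in cattle-yak, against 255, 196 and 250.0 CPM in yak. It rose by 1.54 ± 0.18 (log2, edgeR adjusted p 0.000134), with no overlap, and passed in 14 of 14 alternatives. TTN, titin, rose by 0.64 ± 0.17 (edgeR adjusted p 0.0293), but passed in only 8 of 14 alternatives (adjusted p up to 0.132). ACTA1, the skeletal actin that LMOD3 nucleates, averaged 73420 ± 9841 CPM in cattle-yak and 115500 ± 12810 CPM in yak (SD, n = 3 each) and fell (log2 -0.65 ± 0.17, edgeR adjusted p 0.0204). The symbol stood on only 1.57% of the reads of that identifier, and ACTA1 did not pass without cattle-yak 1, yak 2 or yak 3, nor with reference transcripts only (log2 -0.18). TPM2, a tropomyosin, had a log2 value of -0.42 ± 0.16 and TNNI2, fast troponin I, of -0.19 ± 0.15, and neither passed (edgeR adjusted p 0.095 and 0.447). The TPM2 symbol stood on 61.1% of the reads of its identifier.

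Of 19 genes of actin capping and turnover, 1 rose and 1 fell. XIRP2, an actin-binding repeat protein of muscle, rose by 0.92 ± 0.24 (log2, edgeR adjusted p 0.0254), but did not pass without cattle-yak 1, yak 1 or yak 2. CAP2, which recycles actin monomers and is linked to nemaline myopathy in humans, fell by 0.57 ± 0.16 (log2, edgeR adjusted p 0.0354), a call lost in 8 of 15 alternatives, and its log2 value was 0.19 with reference transcripts only. The alpha-actinins of the Z-disc did not pass (ACTN2 log2 0.25 ± 0.16, ACTN3 log2 0.04 ± 0.17). The ACTN2 symbol stood on only 45.15% of the reads of its identifier.

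Of 8 other nemaline genes tested, 1 rose and 2 fell, ACTA1 among those that fell. ADSS1, a muscle enzyme of the purine nucleotide cycle, had 146.5, 121 and 162 CPM in cattle-yak, against 320, 217 and 285 CPM in yak. It fell by 0.94 ± 0.18 (log2, edgeR adjusted p 0.0054) and passed in 14 of 15 alternatives, the exception being assembled transcripts only (log2 -0.44, adjusted p 0.146). MYO18B, an unconventional myosin of the sarcomere, rose by 0.81 ± 0.22 (log2, edgeR adjusted p 0.0272), and passed in 7 of 14 alternatives. CFL2, the muscle cofilin, averaged 467 ± 75.2 CPM in cattle-yak and 418 ± 4.05 CPM in yak and did not pass (edgeR adjusted p 0.56), nor did slow troponin T, TNNT1 (log2 -0.07 ± 0.17).

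None of 13 CUL3 ligase and Kelch genes passed in edgeR, where 3 had an unadjusted p under 0.05, and DESeq2 called 1 and limma-voom 0. KLHL24 came nearest to passing (log2 -0.53 ± 0.17, edgeR adjusted p 0.0503), and KLHL38, a Kelch gene of muscle, had a log2 value of 1.10 ± 0.37 with overlapping groups (edgeR adjusted p 0.0777). CUL3, the scaffold that joins these Kelch proteins to the ligase, had a log2 value of 0.29 ± 0.26, and RBX1, the RING subunit of that ligase, of -0.25 ± 0.16. The RBX1 symbol stood on only 17.0% of the reads of its identifier. Of 8 regulators, MEF2D alone passed in edgeR, at 8.31, 12.8 and 13.6 CPM in cattle-yak, against 3.11, 6.11 and 3.6 CPM in yak (log2 1.43 ± 0.37, edgeR adjusted p 0.0233), and it did not pass without cattle-yak 2, cattle-yak 3, yak 1 or yak 3. SRF, which with its MRTF partners is known to drive LMOD3 in mouse muscle, had 17.3 ± 1.51 CPM in cattle-yak and 24.3 ± 6.43 CPM in yak (SD, n = 3 each) and did not pass (log2 -0.49 ± 0.25, edgeR adjusted p 0.231). The most abundant regulators, the stretch-responsive ANKRD1 (log2 0.18 ± 0.27) and the muscle factor MEF2C (log2 0.19 ± 0.15), did not pass either.

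**Figure D5:**
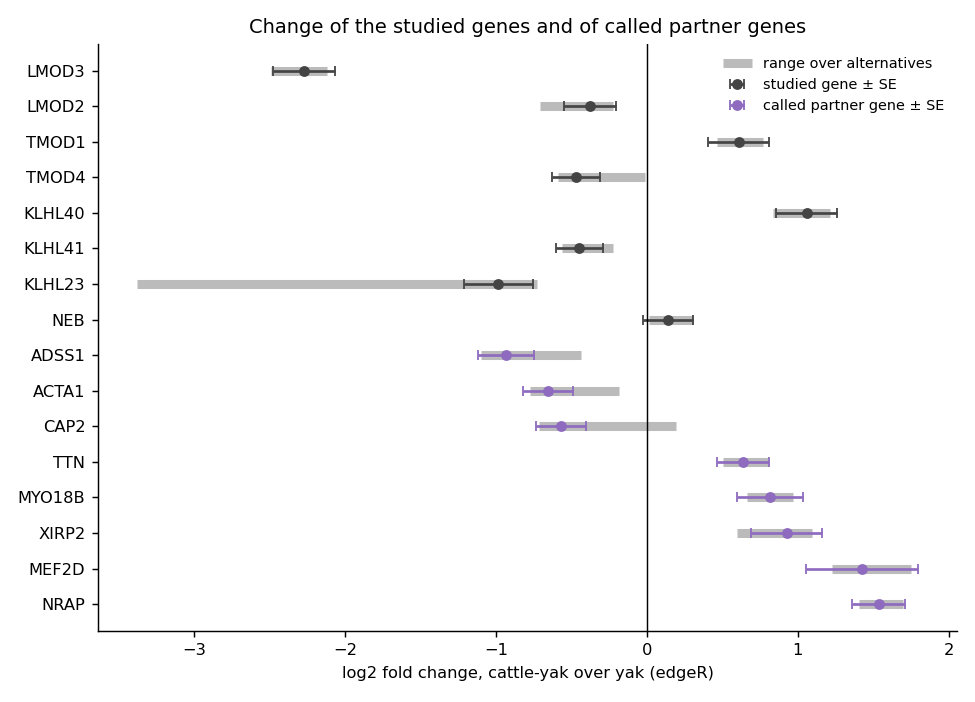
Log2 fold change of cattle-yak over yak in edgeR (horizontal axis, points with SE bars) for the 8 studied genes at the top and the 8 partner genes that passed the test below, with grey bars for the range over all alternatives. LMOD3 (-2.27) lies far left and KLHL40 (1.06) and NRAP (1.54) lie right of 0 under each alternative, while the bar of CAP2 crosses 0 and that of TMOD4 nearly reaches it.

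Markers of fibre type and of other cells moved with the groups to some extent, and their part in the results above was not tested. Of 8 fast fibre genes tested, 2 fell, MYH2 (log2 -0.66 ± 0.15, edgeR adjusted p 0.0135) and ATP2A1 (log2 -0.69 ± 0.20, edgeR adjusted p 0.0335), and the summed fast level did not overlap between the groups. Of 7 slow fibre genes tested, none passed in edgeR (1 at an unadjusted p under 0.05, 0 in DESeq2 and 1 in limma-voom), and MYH7 had a log2 value of 0.11 ± 0.18. The symbol MYH2 stood on only 53.8% of the reads of its identifier, and MYH7 on 44.3%. With reference transcripts only, MYH2 had a log2 value of -2.48. TNNC2, fast troponin C (log2 -1.26 ± 0.97), and MYL3, a slow myosin light chain (log2 1.48 ± 0.47), varied widely between libraries and did not pass (edgeR adjusted p 0.476 and 0.1). Of 5 fibroblast genes tested, 3 fell, and the list summed to between 226 and 433 CPM in cattle-yak and between 434 and 549 CPM in yak. Macrophage genes summed to between 32.1 and 67.9 CPM in cattle-yak and between 13.5 and 22.1 CPM in yak. CTSS, a lysosomal protease and the 1 gene of that list tested, rose (log2 1.44 ± 0.29, edgeR adjusted p 0.0057) and passed in 14 of 14 alternatives. The CTSS symbol stood on only 53.4% of the reads of its identifier. The 6 smooth muscle genes gave 0 calls in edgeR, DESeq2 and limma-voom, with 0 at an unadjusted p under 0.05, and summed to between 146 and 189 CPM in cattle-yak and between 152 and 188 CPM in yak. Endothelial genes summed to between 29.3 and 60.2 CPM in cattle-yak and between 24.9 and 31.1 CPM in yak, and blood genes to between 0.367 and 2.38 CPM in cattle-yak and between 2.7 and 25.3 CPM in yak. The blood genes had too few reads to test.

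The genes whose pattern over the 6 libraries lay nearest to LMOD3 were sought among 4531 genes of at least 10 CPM, by the root mean square difference of centred log2 CPM. As LMOD3 was chosen for its group difference, a gene near it must largely share that difference. Nearness is therefore a description only. The median gene lay 1.18 away. EPDR1 was nearest, at 0.174, followed by KIF22 at 0.237, STBD1 at 0.246, SMYD1 at 0.279 and the assembled locus TALONG000095105 at 0.281. EPDR1 rested on few reads, 12, 10 and 16 in cattle-yak, against 64, 92 and 55 in yak. SMYD1, a methyltransferase needed for myofibril assembly in mice and zebrafish, had 28.9, 33.3 and 39.3 CPM in cattle-yak, against 124, 122 and 136 CPM in yak. STBD1, a glycogen-binding protein, had 59.0, 50.6 and 81.1 CPM in cattle-yak, against 416.5, 359 and 292 CPM in yak. Of the genes studied here, KLHL23 ranked 129, TMOD4 740, KLHL41 804, LMOD2 872, NEB 2848, TMOD1 3910 and KLHL40 4314 in nearness. The rank of KLHL23 is that of its identifier with the PHOSPHO2-named reads.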

How the data were processed

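For each of 6 nanopore cDNA-PCR libraries (kit SQK-PCS109, per the labels' protocols) the authors deposited counts of reads per transcript, in whole numbers, and the same as CPM. The authors' deposited CPM equalled count over library total within 0.005 and was not used further. Tools named in the submitters' processing notes are fastp, minimap2 and GSNAP, with neither version nor role. Genome build and counter: not given in the sources used here. Identifiers are of the Ensembl type for Bos grunniens or of the TALON type for assembled transcripts, and counts per allele of the hybrid are not used here. The table held 179856 transcripts and 132 lines with no values. The 61 transcripts with no gene identifier were left out (0.00249% of a library or less).

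Counts were summed per gene identifier. The test was that of edgeR 4.0.16 (R 4.3.3; TMM after filterByExpr, robust quasi-likelihood, Benjamini-Hochberg over all genes or transcripts tested, threshold 0.05). Usage was tested with diffSpliceDGE on transcripts of at least 5% of their gene. Fold changes are fitted values, and an SE is the log2 fold change over the square root of F. DESeq2 1.42.0 and voom of limma 3.58.1 were alternatives, with other scalings, filters, identifier choices, the replicate number as a block, and each library left out in turn. Without TMM the median log2 value of all genes was 0.18 in place of 0.02. All 8 genes passed the low count filter. The procedure was also run on simulated counts, drawn independently at a fixed dispersion, and the outcome is not reported here. In the real libraries reads were amplified by PCR with no molecular identifiers, so they are not independent draws. The simulation therefore does not vouch for the p-values above. RefSeq (assembly Bosgru_T2T1.0) gave gene order only.

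The genes, lists and tests were chosen with earlier results of these data known. The text names all members, LMOD3 transcripts of at least 2% of its reads, up to 4 transcripts of at least 5% for the others, up to 4 genes that passed and 2 of the most abundant that did not per list, and the 5 nearest to LMOD3. Further genes named from the lists (KLHL38, CUL3, CFL2 and SRF) and the ratios of reads were chosen after their values were seen. No pair of libraries of a group agreed within sampling noise (chi-square over degrees of freedom at least 6.87). Libraries with the same replicate number did not deviate together (correlations -0.038, -0.016 and 0.017), so the numbers were not taken to pair them. Python 3.11.15 (pandas 2.3.3, matplotlib 3.10.9) was used for tables and figures.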

Additional observations from a re-analysis of the deposited data

How the results depend on the processing

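Under the alternatives there were 749 values of single genes, transcripts and identifiers. Those of LMOD3 and KLHL23, whose values chose the set, are among them, so the tally is no test of robustness. Of the 749, 664 kept their direction and their side of the threshold, 71 no longer passed, 8 newly passed and 6 changed sign. The sign changed for CAP2 with reference transcripts only (log2 0.19), for the second KLHL41 identifier with no low count filter (-0.0688), without cattle-yak 2 (-0.0446) and without yak 3 (-0.0453; highest 0.108 without cattle-yak 3), and for NEB transcript TALONT001300288 with library size alone (0.0987) and without cattle-yak 3 (0.0104; lowest -0.148 without yak 2). Of these only CAP2 had passed, and the fit with reference transcripts only also scaled the libraries anew, on 1643 genes. LMOD3 and KLHL23 are also included in the counts that follow, which show only how counts move. The number of the 8 genes that passed was 3, against 5 with no low count filter, 0 of 3 tested with reference transcripts only, and between 2 and 4 without single libraries. Over all genes 948 of 7504 passed, against 1417 of 31044 with no low count filter and 194 of 1643 with reference transcripts only. Of the transcripts of the 8 genes, 77 of 340 tested passed, against 35 of 126 with a mean of at least 10 CPM. Without single libraries the count ran from 43 of 371 (without cattle-yak 2) to 96 of 419 (without cattle-yak 3). Over all transcripts 2924 of 15804 passed, against 1651 of 7167 with a mean of at least 10 CPM. Without cattle-yak 2 it was 2053 of 17660, and without cattle-yak 3 it was 2834 of 18102. For usage 2 of 7 tested genes passed, against 4 of 7 with no minimum share and 2 of 7 without any single library. Over all genes usage passed in 157 of 1821, against 308 of 1965 with no minimum share. Of the partner genes 8 passed, against 3 of 16 tested with reference transcripts only and between 4 and 7 without single libraries, the lowest without yak 1, yak 2 or yak 3, and 5 without cattle-yak 2. The share difference of the leading LMOD3 transcript was 13.9 percentage points and between 12.5 and 15.6 without single libraries. The cause of these moves was not tested, beyond fewer features being tested under the stricter choices. With a replicate block the counts were 3 genes, 67 transcripts, 2 usage calls and 8 partner genes, and CAP2 (adjusted p 0.0562), TALONT000720283 of KLHL40 (0.0521) and TALONT000863679 of TMOD4 (0.0601) no longer passed in edgeR. Depth limits TMOD1, whose 536 reads were spread over 22 transcripts, and KLHL23, with 17 reads under its own name at the first identifier in cattle-yak.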

Other observations

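Genes next to the studied ones in RefSeq's gene order gave mixed values. ASB15, a muscle gene of the ankyrin and SOCS box family beside LMOD2, averaged 30.0 ± 4.59 CPM in cattle-yak and 49.3 ± 8.44 CPM in yak (SD, n = 3 each), and fell by 0.71 ± 0.21 on the log2 scale (edgeR adjusted p 0.037). HHATL, a muscle membrane protein beside KLHL40, averaged 182.5 ± 47 CPM in cattle-yak and 234 ± 36.3 CPM in yak, a log2 value of -0.36 ± 0.20 that did not pass (edgeR adjusted p 0.275) and has the opposite sign to KLHL40. SCNM1, a splicing factor beside TMOD4, averaged 22.6 ± 3.1 CPM in cattle-yak and 34.9 ± 2.1 CPM in yak, with a log2 value of -0.63 ± 0.21 and an edgeR adjusted p of 0.0652. These neighbours were named after their values were seen.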
